A study of Mus musculus with 2 samples.

Results

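The 38 imprinted genes described here are those named in a fixed list, 30 protein-coding and 8 noncoding, out of 21911 named protein-coding and 10143 named long noncoding genes in the mouse annotation. They lie in 17 imprinted clusters. Chromatin accessibility around them was measured by DNase-seq, which maps places where the enzyme DNase I cuts DNA, in whole midbrain of B6NCrl mouse embryos at day 14.5 of gestation. There was 1 group, with 2 biological replicates from separate biosamples that share a donor entry, and each held tissue of pooled males and females. No treated, mutant or control group belongs to the design, so every value below is a description of midbrain at this age. The number of embryos in a pool is not given in the sources used here.

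Imprinted genes are transcribed mainly from the chromosome inherited from one parent. Their clusters hold control regions whose DNA methylation is laid down in one germ line and kept in the embryo, so that one parental copy is methylated and the other is not. CTCF, an insulator protein, binds the unmethylated copy of some control regions, and the zinc finger protein ZFP57 binds its short recognition sequence on the methylated copy and recruits TRIM28. Many of the genes set growth of the embryo and placenta, and several, such as Ube3a, Magel2 and Rasgrf1, are studied in the brain. B6NCrl is an inbred strain, so the lists cannot separate the parental copies and give only their total accessibility. In bulk tissue, more cells with an open site and more opening per cell cannot be told apart.

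At the H19 control region, 4 peaks found in both replicates stood in a row upstream of the gene, and 3 of them held the core GGNGGCAG of the CTCF motif. A peak is a 150 bp interval with a signal value of at most 150 given by the authors, and a peak is called shared when the lists of both replicates overlap there. The sequences are shown because this insulator is where CTCF is known to act on the H19 and Igf2 pair. They are from RefSeq GRCm38.p6, the mm10 sequence, on the strand of H19 and 5′ to 3′, in the order in which they are met on the way to the gene. Capitals mark the CTCF core, searched as GGNGGCAG on either strand, and a match is a description, not a bound site.
H19, chr7:142581756-142581905, minus strand: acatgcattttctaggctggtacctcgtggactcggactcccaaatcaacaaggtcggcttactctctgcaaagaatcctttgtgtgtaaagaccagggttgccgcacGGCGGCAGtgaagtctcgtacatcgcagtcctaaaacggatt
H19, chr7:142581296-142581445, minus strand: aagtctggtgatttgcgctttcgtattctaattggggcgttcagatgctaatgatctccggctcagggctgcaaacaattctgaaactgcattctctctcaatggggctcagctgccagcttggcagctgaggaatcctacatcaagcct
H19, chr7:142580676-142580825, minus strand: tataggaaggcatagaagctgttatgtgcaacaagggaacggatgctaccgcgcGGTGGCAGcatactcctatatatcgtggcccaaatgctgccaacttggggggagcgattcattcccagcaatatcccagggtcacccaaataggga
H19, chr7:142580216-142580365, minus strand: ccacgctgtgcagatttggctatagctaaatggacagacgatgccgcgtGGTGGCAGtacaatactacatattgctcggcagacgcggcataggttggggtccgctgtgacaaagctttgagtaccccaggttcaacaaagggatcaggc

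The values of these peaks were 43 in replicate 1 and 109 in replicate 2 for the farthest, 3687 bp upstream of the H19 5′ end. Next came 24 and 82 at 3227 bp, the interval without the core. At 2607 bp the values were 34 and 114, and at 2147 bp they were 66 and 123. The nearest was the strongest of the row in both replicates, and the one lacking the core was the weakest in both. Over the 4000 bp before the gene, 3 further matches lay in no peak of either replicate, at 1302, 3770 and 3895 bp upstream. The peaks at 2147 and 3687 bp also held 2 copies each of TGCCGC, the sequence described next, and 1 copy at 3687 bp overlapped the CTCF core. Among all 171264 shared peaks of the nuclear chromosomes, 7.98% held the core.

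The next sequences are peaks with at least 2 copies of TGCCGC at 5 control regions, shown because TGCCGC is the sequence ZFP57 is known to recognise. Capitals mark TGCCGC or its reverse complement GCGGCA. The Meg3 interval lies in the intergenic control region between Dlk1 and Meg3, 12631 bp upstream of Meg3, and the Rasgrf1 interval lies 30118 bp upstream of Rasgrf1. The other intervals lie 799, 294 and 399 bp inside the noncoding RNA genes Kcnq1ot1, Peg13 and Airn, the first pair in an exon and the Airn interval in an intron, within the body of Igf2r.
Kcnq1ot1, chr7:143295676-143295825, minus strand: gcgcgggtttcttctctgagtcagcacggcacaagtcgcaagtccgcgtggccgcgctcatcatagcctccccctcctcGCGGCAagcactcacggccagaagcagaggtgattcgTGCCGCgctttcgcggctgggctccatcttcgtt
Rasgrf1, chr9:89879716-89879865, plus strand: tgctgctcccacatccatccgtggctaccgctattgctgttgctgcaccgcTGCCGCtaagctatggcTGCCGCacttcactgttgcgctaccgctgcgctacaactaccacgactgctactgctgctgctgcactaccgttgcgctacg
Meg3, chr12:109528296-109528445, plus strand: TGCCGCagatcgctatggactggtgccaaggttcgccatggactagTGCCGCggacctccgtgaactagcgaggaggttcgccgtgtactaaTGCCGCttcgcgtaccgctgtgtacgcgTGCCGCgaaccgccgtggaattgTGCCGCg
Peg13, chr15:72809956-72810105, minus strand: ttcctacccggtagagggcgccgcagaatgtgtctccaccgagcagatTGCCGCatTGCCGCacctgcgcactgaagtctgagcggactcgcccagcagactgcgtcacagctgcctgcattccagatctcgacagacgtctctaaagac
Airn, chr17:12741636-12741785, plus strand: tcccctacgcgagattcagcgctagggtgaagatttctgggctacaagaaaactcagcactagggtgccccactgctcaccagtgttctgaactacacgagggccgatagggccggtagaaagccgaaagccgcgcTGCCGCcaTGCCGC

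The Meg3 interval held 5 copies of TGCCGC, all on the strand of Meg3, and 21 CpG dinucleotides. Of all 171264 nuclear shared peaks, 4 had 5 copies or more, this one included. Its value was 20 in replicate 1 and 77 in replicate 2, which placed it at the 87.6th and 74.0th percentile of the respective lists. It was the single replicate 2 peak in the region 10000 to 16000 bp upstream of Meg3, and replicate 1 had 3 there. The other intervals printed with it had 2 copies each. Mest and Snrpn also had a control region peak with 2 copies, not printed here. In the Airn interval, 1 of the 2 copies overlapped a match to the CTCF core.

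The last set comes from Peg3, a zinc finger gene expressed from the paternal copy, because its first intron carries a known array of YY1 sites. Capitals mark the YY1 core GCCATNTT, and all matches read on the strand of Peg3. The intervals lie 861, 1721 and 2501 bp inside the gene, and none overlapped an annotated exon.
Peg3, chr7:6729496-6729645, minus strand: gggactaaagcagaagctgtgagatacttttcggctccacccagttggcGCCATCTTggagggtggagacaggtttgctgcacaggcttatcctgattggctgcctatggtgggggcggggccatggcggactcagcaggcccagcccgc
Peg3, chr7:6728636-6728785, minus strand: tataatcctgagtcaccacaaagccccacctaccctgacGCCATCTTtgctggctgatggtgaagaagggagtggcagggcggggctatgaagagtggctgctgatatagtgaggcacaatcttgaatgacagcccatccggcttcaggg
Peg3, chr7:6727856-6728005, minus strand: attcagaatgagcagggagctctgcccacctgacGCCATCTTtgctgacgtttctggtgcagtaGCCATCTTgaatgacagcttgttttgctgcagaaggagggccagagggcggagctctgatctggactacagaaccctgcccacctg

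Their values were 90 and 136 for the interval at 861 bp in replicates 1 and 2. The interval at 1721 bp had 111 and 141, which exceeded the Peg3 promoter peak at 106 and 135. At 2501 bp, the interval with 2 copies had 85 and 135. A further intronic peak at chr7:6727496-6727645, with no match, had 82 and 130. Of the 12 matches across the scanned stretch of Peg3, 3 lay in peaks of both replicates, 1 in replicate 1 alone, 1 in replicate 2 alone and 7 in none. The core occurred in 2.73% of all nuclear shared peaks.

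The replicates differed widely in length. Replicate 1 listed 710176 peaks with a median value of 6, and replicate 2 listed 267958 with a median of 51. Values are therefore compared only within a replicate, as given or as a percentile rank, and the read depth of each library is unknown. In all, 171429 replicate 2 peaks, 64.0%, overlapped a replicate 1 peak. Promoters of 7 of 7 midbrain markers, 4 of 4 progenitor markers and 3 of 3 neuronal markers held a shared peak. So did 3 of 4 mesenchyme and meninges markers and 2 of 4 endothelial markers, against 0 of 4 erythroid and 0 of 4 myeloid markers. Over all coding genes the share with a shared promoter peak was 68.9%, and 3 of 4 is near that share. The part of mesenchymal or endothelial cells in the values below was not tested.

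A shared peak within 1000 bp of an annotated start was present at 31 of the 38 imprinted genes. Of the coding members 25 of 30 (83.3%) had one, where 68.9% of all coding genes did. Of the noncoding members 6 of 8 had one, where 39.4% of all long noncoding genes did. These counts have no test, since the genes are not replicates and were listed with earlier results of these data known. The strongest such peak had a median value of 82 in replicate 1 and 132 in replicate 2 among the 31 genes, and 91 and 137 among all coding genes with one. Among coding members with a CpG island at the 5′ end, 14 of 15 had a shared promoter peak, beside 98.2% of 9725 such coding genes. Without an island it was 11 of 15, beside 45.6% of 12186. The island was scored at the gene's 5′ end alone, while the peak could lie at any annotated start. Among the 11, Igf2, Mest, Snrpn, Grb10, Plagl1 and Impact had their strongest shared peak 8006 to 135069 bp inside that end. Their count therefore does not describe promoters without an island. Of genes expressed mainly from the paternal copy 20 of 23 had a shared promoter peak, and of those expressed from the maternal copy 9 of 13. Both groups mix coding and noncoding genes, for which the shares over all genes were 68.9% and 39.4%. Among the paternal genes, Peg3 and Usp29 share 1 peak, as do Peg10 and Sgce, and each gene is counted. A difference between the groups was not tested. Gnas and Grb10, whose expressed copy depends on isoform or tissue, both had one.

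**Figure D1:**
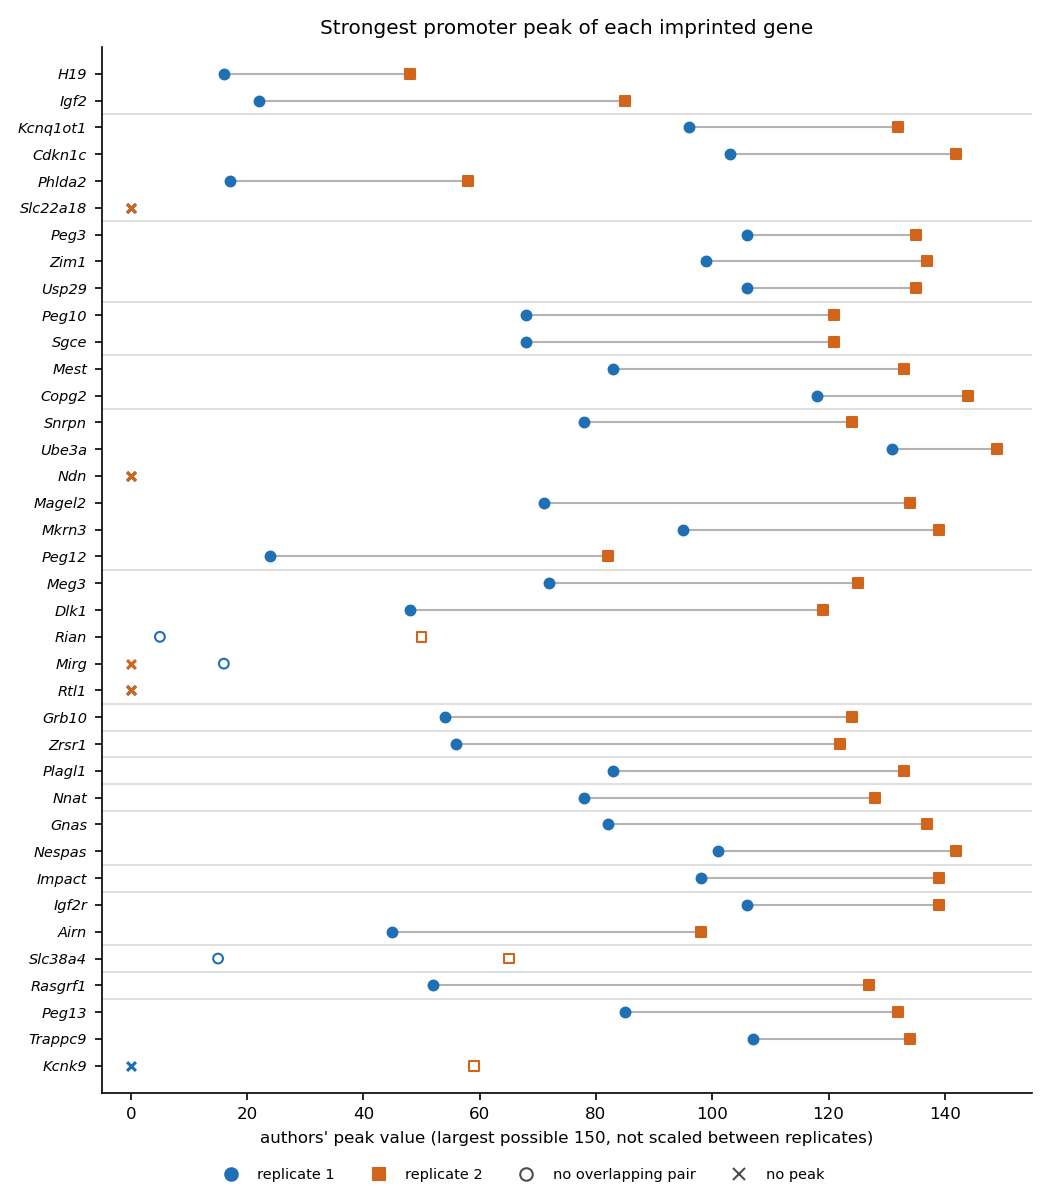
Value of the strongest promoter peak of each of the 38 imprinted genes (horizontal axis, authors' signal value, no unit), by cluster; filled blue circles and orange squares joined by a line are the shared peak in replicates 1 and 2, open symbols are peaks without an overlapping partner, and crosses mark no peak. Ube3a has the highest pair, 131 and 149, H19 has the lowest, 16 and 48, and 7 genes have no shared pair.

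The highest promoter peak by mean percentile rank belonged to Ube3a, the ubiquitin ligase gene that is maternally expressed in neurons, at chr7:59228616-59228765. It had 131 in replicate 1 and 149 in replicate 2. Next stood Copg2, which encodes a coat protein of transport vesicles, with 118 and 144. Cdkn1c, a maternally expressed inhibitor of the cell cycle, followed with 103 and 142. All 3 peaks lay at the gene's 5′ end. All 3 genes are known as expressed mainly from the maternal copy, while the next in rank, Nespas, is expressed from the paternal copy. Expression by copy was not measured here.

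Among the noncoding RNAs the antisense transcript Nespas had the highest promoter peak, 101 and 142. Igf2r, the receptor that clears IGF2, had 106 and 139. The translational regulator gene Impact had 98 and 139. Mkrn3, a makorin gene of the Snrpn cluster, had 95 and 139 at a peak 609 bp inside the gene. The maternally expressed zinc finger gene Zim1 had 99 and 137. Peg3 and Usp29, a pair facing away from each other with 5′ ends 147 bp apart, shared 1 peak with 106 and 135, so their promoters are 1 measurement.

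4 genes stood at the lower end. H19, the maternally expressed noncoding RNA, had 16 and 48 at its strongest shared promoter peak, the lowest of the 31 genes. Phlda2, which restrains placental growth, had 17 and 58 for its shared pair, while its strongest separate peaks were 23 and 100. Peg12 had 24 and 82 for its shared pair of highest mean rank, 780 bp inside the gene. A further shared pair, centred 80 bp from its start and almost equal in mean rank, had 45 and 73. Igf2, the growth factor gene of the H19 cluster, had 8 shared promoter peaks, and the pair of highest mean rank had 22 and 85. Its highest values in each replicate lay in other shared pairs, of 36 and 71 and of 14 and 91. Around its 9 annotated starts, replicate 1 listed 8 peaks and replicate 2 listed 20, a balance opposite to that of the whole lists.

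7 genes had no shared promoter peak. Slc38a4, an amino acid transporter gene, had separate peaks of at most 15 in replicate 1 and 65 in replicate 2. Rian, the noncoding RNA that hosts small nucleolar RNAs, had separate peaks of at most 5 and 50. Mirg, a microRNA host, had a single peak of 16 in replicate 1 and none in replicate 2. Kcnk9, a potassium channel gene, had 5 peaks in replicate 2, up to 59, and none in replicate 1. The transporter gene Slc22a18, the neuronal growth regulator Ndn and the retrotransposon-derived gene Rtl1 had no peak in either replicate.

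For 4 of these 7 genes the call changed with the annotated start. The GENCODE gene model of Ndn begins away from the RefSeq start, and a shared peak of 81 and 124 at chr7:62348216-62348365 was centred 13 bp from the RefSeq start. With RefSeq starts, 34 of 37 members, coding and noncoding together, had a shared promoter peak, against 70.0% of 20679 coding genes. Nespas was not among the RefSeq genes used. The added genes were Ndn, Kcnk9 (68 and 109), Slc38a4 (14 and 51) and Rtl1 (20 and 52). The Rtl1 peak, at chr12:109605356-109605505, was centred 1012 bp from its RefSeq start and also lies inside Rian. Slc22a18, Rian and Mirg had none under either annotation. The RefSeq starts were tried after the values had been seen.

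The remaining promoters fell between these ends. In the Kcnq1ot1 cluster the long antisense RNA Kcnq1ot1 itself, which silences its neighbours on the paternal copy, had 96 and 132. In the Snrpn cluster the splicing gene Snrpn had 78 and 124 and Magel2, a regulator of endosomal protein sorting, had 71 and 134. The noncoding Meg3 had 72 and 125, while Dlk1, a transmembrane ligand gene related to Notch ligands, had 48 and 119. Airn, the antisense RNA that represses Igf2r, had 45 and 98, lower in both replicates than Igf2r. Peg10 and Sgce, with 5′ ends 99 bp apart, shared a peak of 68 and 121.

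Mest, a hydrolase gene, had 83 and 133 and Plagl1, a zinc finger growth regulator, also 83 and 133. Nnat, a proteolipid gene of developing neurons, had 78 and 128. Rasgrf1, an exchange factor for Ras proteins, had 52 and 127. Zrsr1, a retrotransposed splicing factor gene, had 56 and 122. The adaptor gene Grb10 had 54 and 124 at a peak 12753 bp inside its 5′-most start, near an internal start. In the Peg13 cluster the noncoding Peg13 had 85 and 132 and its host Trappc9, a trafficking gene, had 107 and 134.

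Gnas, which encodes the stimulatory G protein subunit, has several promoters whose parental bias differs, and peaks were found at each. At the 5′-most start, that of the maternally expressed Nesp transcript, the shared peak had 28 and 104. The Nespas promoter, 11190 bp into Gnas, had the 101 and 142 given above. The start of the paternally expressed Gnasxl transcript had 29 and 86 at 13150 bp. The exon 1A region had 70 and 126 at 43110 bp and 50 and 114 at 43430 bp. The main Gnas promoter, used from both copies in most tissues, had 82 and 137 at 45450 bp and 72 and 137 at 45690 bp. The Nespas and main Gnas promoters were thus higher in both replicates than those of Nesp and Gnasxl.

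**Figure D2:**
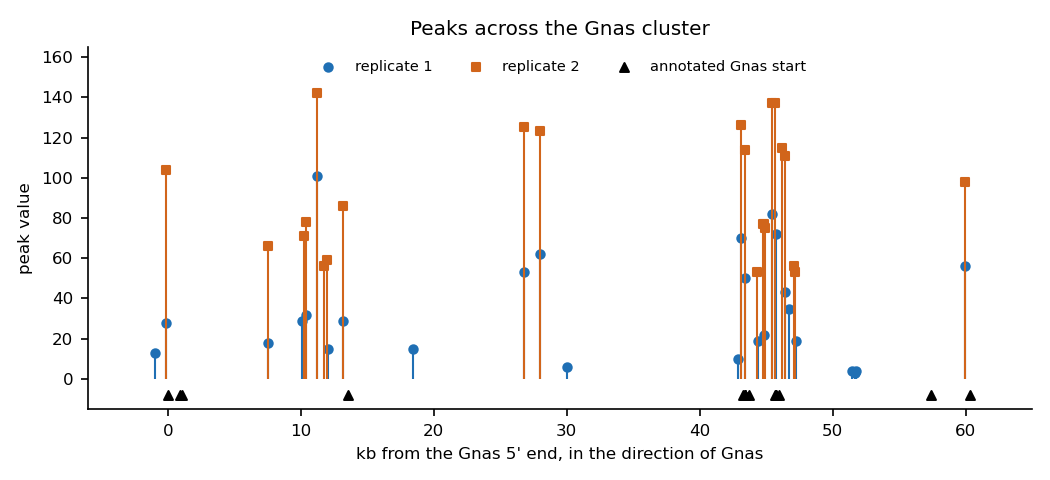
Authors' peak value (vertical axis, no unit) against distance in kb from the 5′-most Gnas start; blue circles are replicate 1, orange squares are replicate 2, and triangles are annotated Gnas starts. The Nespas peak (101 and 142) and the peaks near the main Gnas start (82 and 137) are the highest, and 2 intronic peaks without a nearby start stand between them.

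Of 17 germline control regions, 16 held a shared peak. These were placed within 1000 bp of any annotated start for 14 genes, so alternative promoters count as well. For H19, Meg3 and Rasgrf1 they were placed by distance upstream. Their borders were not measured here. The 14 at starts are promoter calls already counted among the members: 9 of 10 at coding genes held a shared peak, the exception being Slc38a4, beside 68.9% of all coding genes, and 4 of 4 at noncoding genes, beside 39.4% of all long noncoding genes. All 3 placed upstream held one. The same stretch 2000 to 4000 bp upstream, where H19 has its region, held a shared peak at 12.7% of all coding genes. For the stretch of Meg3, 10000 to 16000 bp upstream, it was 29.1%, and for that of Rasgrf1, 28000 to 34000 bp upstream, 31.0%. The strongest peaks at start-based regions are the promoter values given above for Kcnq1ot1, Peg3, Peg10, Mest, Snrpn, Grb10, Zrsr1, Plagl1, Nnat, Nespas, Impact, Airn and Peg13. The upstream region of Rasgrf1 had 43 and 105.

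The 57 shared peaks in these regions carried TGCCGC in 18 cases (31.6%), where 5.31% of all nuclear shared peaks carried it. The 57 pool peaks at every annotated start of a gene, so some lie far apart. Those of Snrpn, for example, stood at chr7:60005076-60005225 and chr7:60140216-60140365. Which of the 57 lie in the methylated stretch was not measured. TGCCGC contains a CpG, and CpG content differed, with a median of 8 in the control regions and 3 in all. With 8 or more CpG per 150 bp, 17 of 33 control region peaks (51.5%) held TGCCGC, beside 16.4% of 27164 peaks. With fewer CpG it was 1 of 24 (4.17%), beside 3.22% of 144100. A pair of copies or more occurred in 9 of 57 control region peaks (15.8%), beside 0.363% of all. This comparison was not split by CpG content, and each of the 9 peaks held 8 or more CpG. Those 9 peaks lay in 8 control regions, and 13 of 17 regions had at least 1 copy in a shared peak. A region held up to 7 shared peaks, and no share over all features was computed for these counts of regions. The CTCF core was at 8.77%, beside 7.98% of all, and the YY1 core at 3.51%, beside 2.73%. Neighbouring peaks share a region and shares here have no test.

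**Figure D3:**
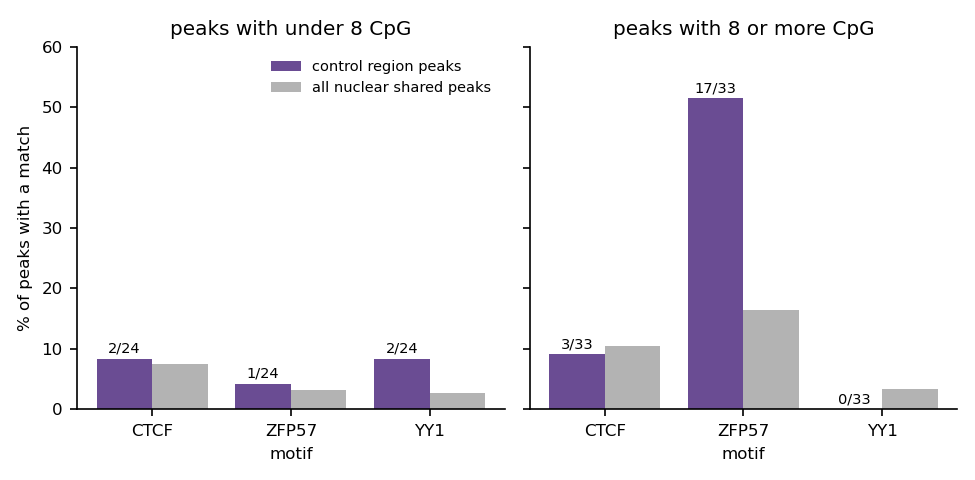
Percentage of peaks with an exact match to the CTCF, ZFP57 or YY1 motif, for peaks with under 8 CpG (left) and 8 or more (right). Purple bars are the 57 control region peaks, which pool all annotated starts of a gene, with counts above them. Grey bars are all nuclear shared peaks. The ZFP57 bar at 8 or more CpG is 51.5% in control regions and 16.4% in all shared peaks.

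Around the members, gene bodies and 20 kb on either side were merged by cluster into 3342 kb of windows. They held 1173 replicate 1 peaks, 568 replicate 2 peaks and 373 shared peaks. Of the replicate 2 peaks 65.7% were shared (95% exact binomial interval 61.6 to 69.6, counting error only), close to the 64.0% of all replicate 2 peaks. The density was 11.2 shared peaks per 100 kb, beside 6.28 over the chromosomes. Windows around genes are denser than the genome at large, so the members are better set against other genes: their median was 12.3 per 100 kb and that of all coding genes 8.61, with quartiles of 4.15 and 14.2. Of the 38 members 27 were above the coding median. Windows of neighbouring members, such as Igf2r and Airn, overlap and hold some of the same peaks, so these genes are not separate observations.

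Density ranged widely between clusters. Nnat had 42.4 shared peaks per 100 kb, Zrsr1 22.5, and H19-Igf2 21.3. At the other end Rasgrf1 had 4.46, the only cluster under the genome value, and Slc38a4 had 6.92 with no shared peak near a GENCODE start. The Rasgrf1 window does not reach the upstream control region of that gene. The compact windows of Nnat and Zrsr1 cover 42.4 and 44.5 kb, so a few peaks weigh more there. Of the 373 shared peaks 137 (36.7%) lay within 1000 bp of a start, beside 23.7% of all nuclear shared peaks, 164 in introns, 58 between genes and 14 in exons.

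**Figure D4:**
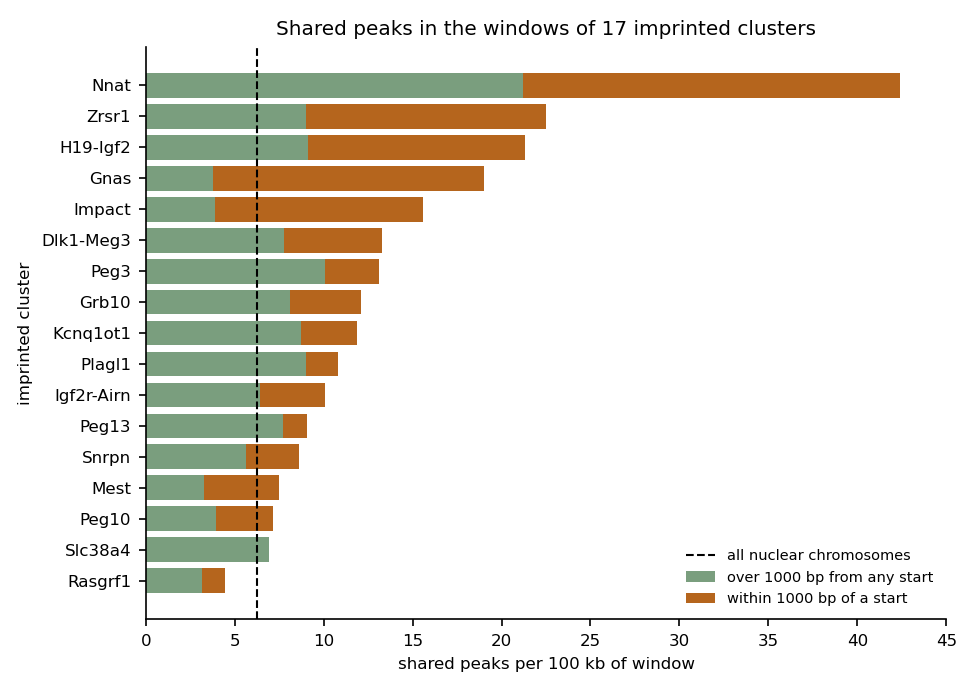
Shared peaks per 100 kb of window (horizontal axis) in the 17 imprinted clusters, split into peaks over 1000 bp from any start (green) and within 1000 bp (brown), with the value over all nuclear chromosomes as a dashed line. Nnat is the densest at 42.4 and Rasgrf1, at 4.46, is the only cluster under the dashed line at 6.28.

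The balance between replicates differed from cluster to cluster. Over all peaks replicate 1 had 2.65 times as many as replicate 2, and over the cluster windows 2.07 times. H19-Igf2 had 34 peaks in replicate 1 and 42 in replicate 2, and Zrsr1 had 17 and 18. The other 15 clusters had more in replicate 1. Gnas had 26 and 23, and 87.0% of its replicate 2 peaks were shared.

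More than 1000 bp from any GENCODE start, the strongest shared peak of all clusters lay at chr15:73067556-73067705, between genes and 6426 bp from the nearest start, that of Trappc9. It had 130 and 149, close to the Ube3a promoter. The Peg3 intron peak followed with 111 and 141, and a Grb10 intron peak at chr11:11973456-11973605 had 80 and 136. Peg10 had an intronic peak of 91 and 132. In H19-Igf2 it was the insulator peak of 66 and 123. In the Snrpn cluster the strongest by GENCODE starts was the Ndn peak described above, which lies at the RefSeq start of Ndn. With peaks near RefSeq starts left out as well, it was an intronic Snrpn peak of 61 and 117.

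A middle group of distal peaks had replicate 2 values between 111 and 123. The Gnas cluster had 62 and 123 in an intron, and the Kcnq1ot1 cluster 62 and 121 between Cdkn1c and Slc22a18. Dlk1-Meg3 had 53 and 118 beyond the end of Mirg. For Igf2r-Airn it was 44 and 116 inside Airn, and for Plagl1 64 and 116 in an intron. Zrsr1 had 54 and 111. In the Rasgrf1 window, which does not reach the upstream control region peak of 43 and 105, it was 30 and 106. The peak of 30 and 106 lay 1138 bp from the GENCODE start but 738 bp from the RefSeq start. With RefSeq starts left out as well, the strongest was 33 and 84 in an intron. Lower pairs stood in Impact (52 and 98), Mest (35 and 97), Nnat (36 and 93) and Slc38a4 (16 and 51).

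Over all windows the TGCCGC share was 19.7% of 137 shared peaks near starts, beside 10.8% of all such peaks, with a median of 8 CpG in each. Away from starts it was 7.63%, beside 3.6%, with a median of 3 CpG in the windows and 2 in all. The CTCF core was found in 11.9% of 236 distal peaks, beside 7.53%, and in 10.9% of those near starts, beside 9.43%. These windows include the control regions described above, except that of Rasgrf1, whose upstream stretch lies beyond the 20 kb of its window.

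Peaks also lie within hotspots, broader enriched regions that the authors listed with a −log10 q of at most 100. The strongest promoter peaks of the 31 genes lay in hotspots at that cap in 28 cases in replicate 1 and 30 in replicate 2, close to the 88.0% and 96.2% found for the strongest promoter peaks of the 15107 coding genes with a shared one. The exceptions in replicate 1 were Igf2 (3.84), Phlda2 (3.0) and Peg12 (3.06), and in replicate 2 H19 (5.3). These 4 genes also had the lowest ranked promoter peaks.

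In a list of 45 further imprinted or neighbouring genes, 37 (82.2%) had a shared promoter peak, beside 68.9% of all coding genes. The list includes Zim2, Zim3 and Zfp264, which are not annotated as protein-coding. Without one were Tspan32, Th and Zim2, with a peak in replicate 2 alone, Ins2, Zim3, Zfp264 and Slc22a2, with a peak in replicate 1 alone, and Dio3, with separate peaks of 16 and 84. The listed genes are not all separate measurements. Blcap had the 78 and 128 of the Nnat promoter peak, already counted among the members, and Nap1l5 and Herc3 both had 71 and 131. The replicate 2 peak at Th, the tyrosine hydroxylase gene of dopamine neurons, had 42. Of 22 genes that set, keep or read imprints, 19 (86.4%) had one, again beside 68.9%. Zfp57 had 81 and 124, its partner Trim28 had 110 and 144, and Ctcf had 108 and 146. Dnmt3l, a germ cell cofactor of DNA methylation, had a replicate 2 peak of 33 alone, and Dppa3 and Ctcfl had no promoter peak in either replicate.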

How the data were processed

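DNase-seq of midbrain was available as peak and hotspot lists for each of 2 biological replicates, on mm10 per the labels, so peaks were called per replicate. Aligner and peak caller: not given in the sources used here. The deposited peak lists give a signal value per peak, a whole number of at most 150, not scaled between replicates. The deposited hotspot lists give q as −log10, at most 100, for regions with q up to 0.05. No read counts were used, and the depth is unknown.

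Starts came from GENCODE M21 and sequence from GRCm38.p6. Coordinates are 1-based. Peaks overlapping by at least 1 bp were shared and described by the replicate 2 interval, with the strongest overlapping replicate 1 peak. Promoters were 1000 bp on either side of any start, and cluster windows took 20 kb beyond gene bodies. A CpG island was called in the 1001 bp at the 5′ end at a GC content of at least 50% and an observed to expected CpG ratio of at least 0.6. Motifs were exact matches in the 150 bp at the peak centre. Cluster membership, expressed copy and control regions are textbook knowledge. The tools were pandas 2.3.3, numpy 2.4.6, matplotlib 3.10.9 and scipy 1.17.1 under Python 3.11.15, and the overlap step was tested on simulated data.

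The members and lists were chosen with earlier results of these data known. Values in both replicates were given for members without a shared promoter peak, the 10 with the highest mean rank, control regions at starts and the strongest distal peak of each cluster. In the other lists, members without a shared promoter peak were named. Alternatives were other promoter and cluster windows, stricter overlap, stronger peaks, lists of equal length, hotspots, each replicate alone and RefSeq starts.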

Additional observations from a re-analysis of the deposited data

How the results depend on the processing

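With 2 libraries of 1 group, no test between conditions was possible, and the lists carry no read depth. No paired analysis was possible because there is 1 group. The number of imprinted genes, coding and noncoding together, with a shared promoter peak ranged from 28 to 36. The 28 came from gene 5′ ends alone, where 64.3% of all coding genes had one. The 36 came from windows of 2000 bp (71.2%). The number of control regions ranged from 15 to 17. With either replicate alone 34 members had a promoter peak, beside 75.8% of all coding genes in replicate 1 and 72.4% in replicate 2. The peaks in cluster windows numbered 568 without replicate 1 and 1173 without replicate 2, since no overlap is then asked for, and between 292 and 480 under the other settings. The shared percentage of replicate 2 peaks in the windows was 54.6 with an overlap of at least 75 bp, where it was 55.5 over all peaks, and 74.5 with the weakest peaks of each list left out, where it was 75.4 over all. It stayed above the value for all peaks with lists of equal length (63.7 beside 60.5) and with windows of 10 kb (66.1) or 50 kb (65.5), both beside 64.0.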
